A study of Homo sapiens with 6 samples.

Results

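The 34 genes described here encode the hypoxia-inducible factor (HIF) subunits, the enzymes that sense oxygen and destroy HIF, and genes that HIF is known to switch on. They were taken as a given list of gene symbols; no difference between the groups enters the rule, but the list was proposed with earlier results of these data known, so its counts are a description. Of the 34 genes, 33 had a probe set that the array's annotation assigned to that gene alone, 27 of these were bright enough to test, and 14199 genes were tested in all. CA9, a classical HIF target that encodes a cell-surface carbonic anhydrase, was not analysed here. The study used the human colon carcinoma line SW480 and asked how its RNA changed after a short hairpin RNA (shRNA) against gankyrin, the product of PSMD10 and a chaperone of the proteasome's regulatory particle. There were 3 arrays from cells given a non-targeting shRNA and 3 from cells given the gankyrin shRNA, each for 4 days, and no further treatment is named in the labels. The labels name no oxygen condition, and the growth medium contained serum. The labels name 1 cell line and do not say how many hairpins were used or whether the 3 arrays of a group came from separate cultures, so a p-value here speaks to how far the arrays scatter, which may be technical, and no further.

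HIF is a pair of proteins, an oxygen-labile alpha subunit (HIF1A or EPAS1, also called HIF-2 alpha) and the stable partner ARNT. In oxygen, prolyl hydroxylases of the EGLN family mark the alpha subunit, the VHL ubiquitin ligase binds it and the proteasome destroys it, while the asparaginyl hydroxylase HIF1AN blocks its activation domain. In low oxygen the pair accumulates and binds DNA at short cores such as ACGTG. It raises genes for glycolysis, mitochondrial turnover, blood vessel growth and collagen modification. The transcript of an alpha subunit and the activity of the protein therefore need not move together.

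Each value is the log2 signal of a gene's brightest probe set, where 1 unit is a doubling, and a fold change is the difference of group means (knockdown minus control). A gene is said to have risen or fallen where limma's moderated test, with Benjamini-Hochberg adjustment over all 14199 genes, gave an adjusted p under 0.05. Of the 27 genes tested, 10 fell and 3 rose. The background over all genes was 14.3% lower and 8.13% higher, 22.5% in either direction, against 37.0% and 11.1% of the hypoxia genes. The genes that fell were NDRG1, ADM, BNIP3L, BHLHE40, P4HA1, PFKFB3, ANKRD37, PFKFB4, P4HA2 and MXI1, and those that rose were FAM162A, AK4 and DDIT4. In these bulk samples fewer cells of a kind and less RNA per cell cannot be told apart. Leaving out knockdown replicate 2 or 3 left 6 genes lower and 1 higher, where 7.96% and 7.54% of all genes were then called lower; 1 was higher without any 1 array other than control replicate 3. The median change was -0.18 for the hypoxia genes and -0.02 for all genes tested. The arrays of the groups did not overlap in 16 hypoxia genes that were lower and in 3 that were higher, where 24.6% of all genes were lower without overlap and 15.7% were higher without overlap. A change of at least 0.5 was seen in 4 of the 27 (14.8%), all of them lower, against 6.85% of all genes. The log2 changes spanned -0.99 to 0.24.

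**Figure D1:**
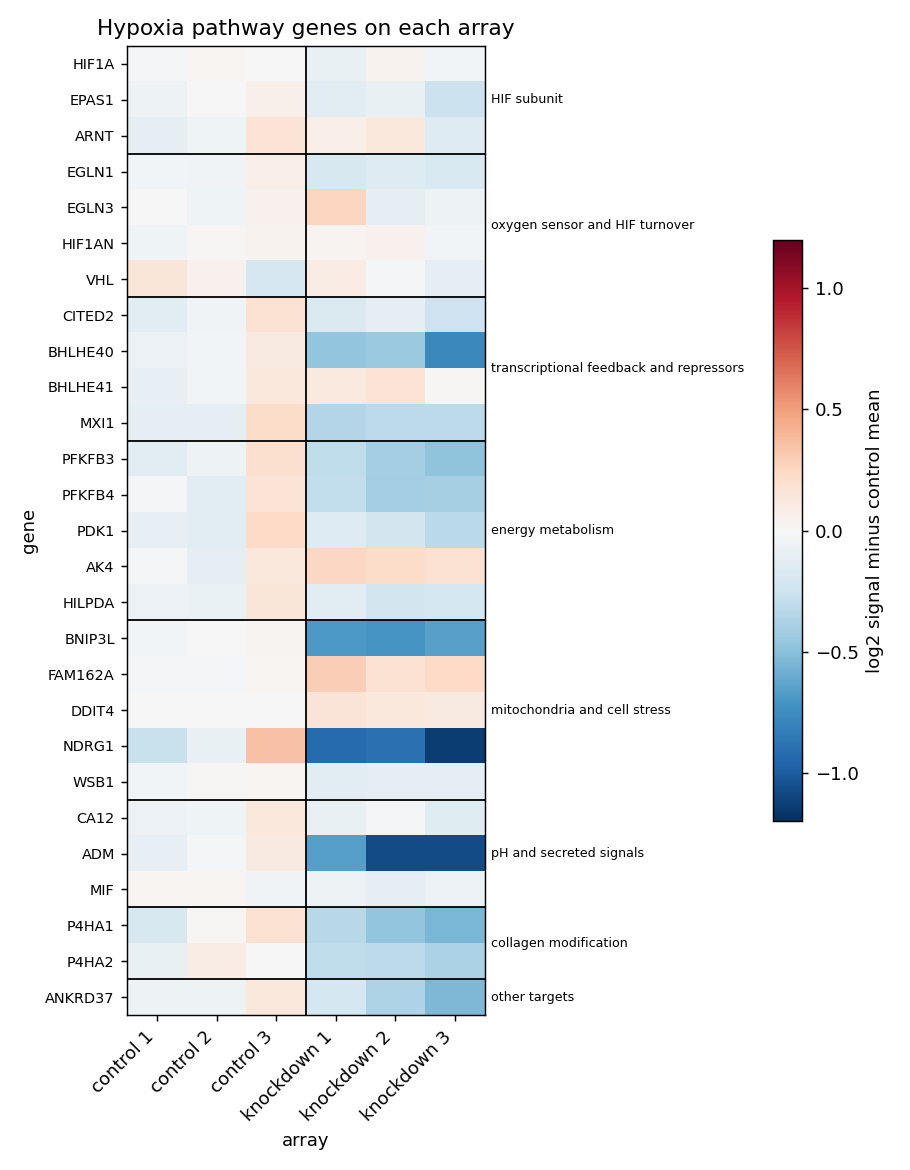
Log2 signal of the 27 tested hypoxia genes (rows, grouped by role) on each of the 6 arrays (columns), each shown as the difference from the mean of the 3 control arrays; blue is lower, red is higher and the vertical line parts control from knockdown arrays. NDRG1, ADM, BNIP3L and BHLHE40 carry the strongest blue, and control 3 is red in most of the rows that are blue after knockdown.

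The RefSeq promoter table (build GRCh38.p14), which covers 250 bases before to 50 bases after the transcription start, held 29 of the 33 genes. VHL, HILPDA, BNIP3L and NDRG1 were absent from it, so their promoters were not searched. The promoters were searched for ACGTG on either strand, where a match within CACGTG counts on both strands. Other forms of the core were not searched, so a promoter without ACGTG may still hold one. Below, the core means ACGTG. The core was present in 15 of the 29 hypoxia promoters (51.7%), in 21.4% of all 35116 promoters in the table and in 25.7% of the 11364 promoters of genes tested here. For the hypoxia genes and the genes tested, only the first promoter listed for each symbol was used. The 35116 are all entries, so that share is on an unlike set. Among the genes that fell and had a promoter in the table, 3 of 8 held the core, and among those that rose, 3 of 3 did. It was also present in 5 of the 12 that were tested and not called (41.7%) and in 4 of the 6 that were too dim to test, and in 27.4% and 27.3% of the promoters of all genes that fell and rose. The promoters of HIF1A, EPAS1 and ARNT held none in this window. The 4 promoters printed next belong to the genes that changed, held the core and had the smallest p, in the order of that p; they place the searched letters in front of genes that moved in opposite directions. All run 5′ to 3′ on the gene's own strand, and capitals mark ACGTG or its reverse complement CACGT. BHLHE40 lies at chr3:4979187-4979486 on the plus strand, FAM162A at chr3:122383932-122384231 on the plus strand, P4HA1 at chr10:73096817-73097116 on the minus strand and ANKRD37 at chr4:185396591-185396890 on the plus strand.
BHLHE40: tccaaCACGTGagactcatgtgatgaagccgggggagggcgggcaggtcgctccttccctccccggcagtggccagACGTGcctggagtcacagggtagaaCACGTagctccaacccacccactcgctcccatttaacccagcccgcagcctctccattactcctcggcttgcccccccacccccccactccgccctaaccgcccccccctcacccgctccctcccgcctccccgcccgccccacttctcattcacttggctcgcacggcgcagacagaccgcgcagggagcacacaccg
FAM162A: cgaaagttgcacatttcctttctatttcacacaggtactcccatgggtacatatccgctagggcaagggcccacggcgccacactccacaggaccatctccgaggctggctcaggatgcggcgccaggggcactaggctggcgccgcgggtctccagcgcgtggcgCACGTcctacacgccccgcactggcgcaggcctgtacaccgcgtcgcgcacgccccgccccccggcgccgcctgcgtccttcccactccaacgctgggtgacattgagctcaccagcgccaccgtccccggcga
P4HA1: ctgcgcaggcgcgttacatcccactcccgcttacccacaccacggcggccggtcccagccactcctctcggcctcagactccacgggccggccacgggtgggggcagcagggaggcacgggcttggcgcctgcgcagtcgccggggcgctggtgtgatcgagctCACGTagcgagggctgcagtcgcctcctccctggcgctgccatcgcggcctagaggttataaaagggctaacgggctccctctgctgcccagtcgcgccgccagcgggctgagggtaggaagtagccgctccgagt
ANKRD37: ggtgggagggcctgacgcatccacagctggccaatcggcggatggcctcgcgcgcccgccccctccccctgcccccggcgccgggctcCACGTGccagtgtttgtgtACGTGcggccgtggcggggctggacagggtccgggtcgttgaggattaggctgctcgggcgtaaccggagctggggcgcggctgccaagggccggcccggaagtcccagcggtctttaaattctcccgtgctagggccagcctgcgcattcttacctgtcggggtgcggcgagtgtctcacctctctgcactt
BHLHE40 and ANKRD37 each hold a CACGTG run and further cores, with 4 and 3 strand-wise matches in the window, and both fell. P4HA1 fell and FAM162A rose, and each holds 1 match, 86 and 84 bases before the start. A match is a stretch of letters and not a measured binding site, since no binding was assayed.

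The target of the hairpin was checked first. PSMD10 had log2 signals of 10.19, 10.23 and 10.15 on the control arrays and 6.58, 6.47 and 6.30 on the knockdown arrays, a change of -3.74 ± 0.08 (SE, n = 3 and 3; limma, adjusted p = 6.8e-09). The series' design sentence names NFIL3 as the second condition where the sample titles name gankyrin, and NFIL3 changed by -0.26 ± 0.07 (adjusted p = 0.028), from 9.33 ± 0.13 to 9.07 ± 0.05 (SD). Control replicate 3 stood apart in RNA quality: the 3′ minus 5′ difference of the GAPDH control probe sets was 0.56 there and between -0.11 and 0.00 on the other arrays, and that of ACTB was 1.82 against 0.43 to 0.53. It was the control array farthest from the median in 19 of the 27 hypoxia genes and the highest control in 9 of the 10 that fell, as it was in 78% of all 2035 genes that fell. Without it, all 13 calls were kept and MIF was called lower as well, giving 11 lower and 3 higher, and the part of RNA quality in these results was otherwise not tested. The 3′ probe set for 18S ribosomal RNA read 6.02 to 6.28 on control and 7.30 to 7.55 on knockdown arrays, and its part was not tested either. Of 12 markers of colon epithelium 11 were above the low end of the scale, 5.48, which is the 95th percentile of 230 probe sets for tissue-restricted genes; CDX2 was the exception, and 4 of the 12 fell and 2 rose. Among markers of other cells, 1 of 7 for fibroblasts (COL1A1), 1 of 5 for leukocytes (LYZ) and 0 of 5 for endothelium were above it, and of the 9 of these 17 that were bright enough to test limma called 0, with 0 at an unadjusted p under 0.05. Their log2 signals, summed over the markers of a cell type, were 28.8 to 28.9 on control and 29.21 to 29.65 on knockdown arrays for fibroblasts, 26.89 to 27.45 and 26.99 to 27.64 for leukocytes, and 17.33 to 18.02 and 17.83 to 18.8 for endothelium. The fibroblast sums did not overlap between the groups, and the sums were not tested.

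None of the 3 HIF subunit transcripts passed limma's adjusted test, and 1, EPAS1, had an unadjusted p under 0.05. HIF1A, the widely expressed alpha subunit, read 11.39, 11.43 and 11.41 on control and 11.32, 11.45 and 11.38 on knockdown arrays. The groups overlapped, and the change was -0.03 ± 0.04 with a 95% interval of -0.12 to 0.07 (adjusted p = 0.71). EPAS1, the alpha subunit of HIF-2, read 9.27, 9.34 and 9.39 on control and 9.21, 9.24 and 9.08 on knockdown arrays. All knockdown arrays were below all control arrays, and the change of -0.16 ± 0.06 did not pass (adjusted p = 0.11). The dimmer EPAS1 probe set showed 0.62 and, without control replicate 3, 0.05, both opposite in sign to the brightest. ARNT, the shared partner, showed 0.02 ± 0.11 on its brightest probe set, with 6.63 ± 0.15 in control and 6.65 ± 0.15 in knockdown cells (SD, n = 3). Of its 4 dimmer probe sets, 1 was called higher at 0.58, from 4.60 ± 0.19 to 5.18 ± 0.01, when all 32759 probe sets past the filter were fitted (adjusted p = 0.022). It averaged 4.89 over the 6 arrays, under the low end of the scale, 5.48. Another, averaging 4.56, was not called. It showed 0.89 without overlap between groups, and 0.49 without control replicate 3. The others showed 0.15 and -0.25.

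The oxygen sensors and the HIF turnover genes did not pass the test either, with 0 of 4 called by limma and 1, EGLN1, at an unadjusted p under 0.05. EGLN1, the main prolyl hydroxylase acting on HIF, read 8.85, 8.84 and 8.97 on control and 8.69, 8.73 and 8.70 on knockdown arrays. The groups did not overlap, and the change of -0.18 ± 0.06 fell short of the threshold (adjusted p = 0.065). EGLN3, a prolyl hydroxylase that HIF itself is known to induce, showed 0.03 ± 0.10, with knockdown replicate 1 at 7.50 and all other arrays between 7.13 and 7.29. HIF1AN showed 0.02 ± 0.07 and VHL, the substrate receptor of the ligase, -0.01 ± 0.11. The VHL probe set averaged 5.47 over the 6 arrays, just under the low end of the scale. EGLN2 was below the filter at a log2 signal of 3.6, with means of 2.72 in control and 2.71 in knockdown cells.

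Of the genes that feed back on transcription, 2 of 4 tested fell, where 14.3% of all genes tested fell. BHLHE40 (also known as DEC1), a basic helix-loop-helix repressor, read 9.38, 9.42 and 9.56 on control and 8.98, 9.01 and 8.68 on knockdown arrays. Every knockdown array was below every control array, and the change was -0.56 ± 0.09 (SE; adjusted p = 0.0023), a signal 1.48-fold lower. Its other probe set averaged 6.48 in both groups, a change of 0.00, so the call is lost when probe sets are averaged (-0.28, adjusted p = 0.22). On that probe set control replicate 3 read 5.70 and the other controls 6.88 and 6.86, against 6.57, 6.57 and 6.31 after knockdown, and its change without control replicate 3 was -0.39. MXI1, a MAX partner that opposes MYC, read 9.73, 9.72 and 10.05 on control and 9.48, 9.52 and 9.52 on knockdown arrays. The groups did not overlap, and control replicate 3 was the highest array. The change was -0.33 ± 0.08 (adjusted p = 0.021) and -0.22 without that array (adjusted p = 0.0025). Without an intensity trend, or without any 1 of the knockdown replicates, MXI1 no longer passed, with a highest adjusted p of 0.082. CITED2, which competes with HIF for its coactivators, showed -0.18 ± 0.10 and BHLHE41 (DEC2), the paralog of BHLHE40, 0.10 ± 0.08, neither past the threshold. RORA, a nuclear receptor gene, was below the filter with means of 2.59 and 2.49.

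**Figure D2:**
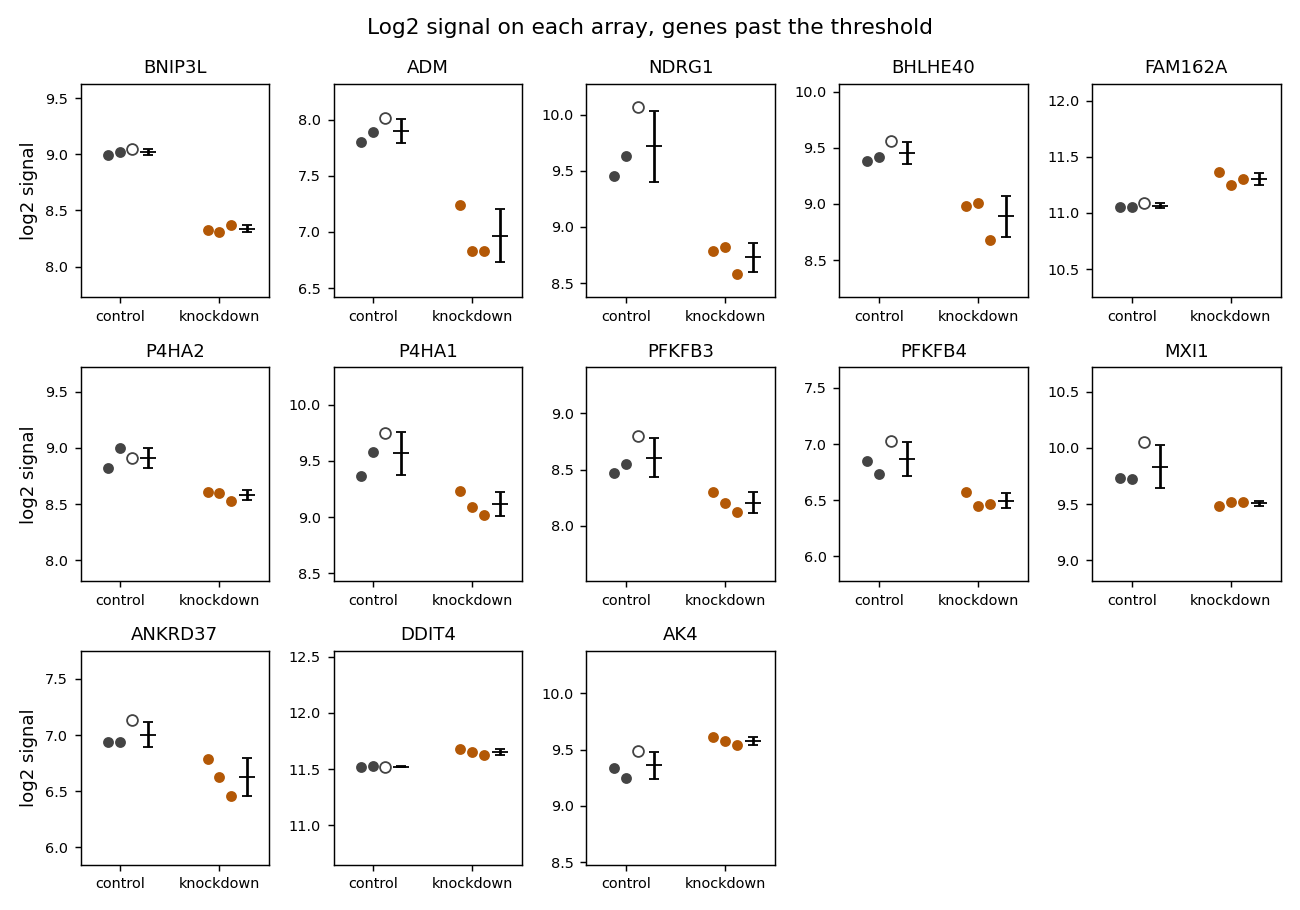
Log2 signal (y axis, a window of equal height in each panel) of the 13 hypoxia genes past the threshold on the 3 control (grey) and 3 knockdown (orange) arrays, in order of p, with the mean and SD beside each group; the open circle is control replicate 3. In all 13 panels the groups do not overlap, and the gap is widest for NDRG1, ADM and BNIP3L.

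Energy metabolism was split, with 2 genes lower, 1 higher and 2 not called of the 5 tested. Over all genes tested, 14.3% were lower and 8.13% higher. PFKFB3 and PFKFB4 make fructose 2,6-bisphosphate, the activator of the glycolytic enzyme phosphofructokinase. PFKFB3 read 8.47, 8.55 and 8.80 on control and 8.30, 8.20 and 8.12 on knockdown arrays. PFKFB4 read 6.85, 6.73 and 7.03 on control and 6.57, 6.45 and 6.47 on knockdown arrays. In both genes each knockdown array was below each control array, with control replicate 3 highest. The changes were -0.40 ± 0.09 for PFKFB3 (adjusted p = 0.013) and -0.37 ± 0.10 for PFKFB4 (adjusted p = 0.021). The PFKFB3 call was lost without knockdown replicate 2 or 3 (highest adjusted p 0.068), and the PFKFB4 call was lost without any 1 of the knockdown replicates and when its probe sets were averaged (-0.08, adjusted p = 0.56). The dimmer PFKFB4 probe set showed 0.22.

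PDK1, the kinase that shuts off pyruvate dehydrogenase, read 8.36, 8.32 and 8.70 on control and 8.31, 8.24 and 8.14 on knockdown arrays. The groups did not overlap, by 0.01 between the nearest arrays, and the change of -0.23 ± 0.10 did not pass (adjusted p = 0.14). Its second probe set showed 0.45, with control replicate 3 at 4.93 and the other controls at 6.42 and 6.47, and -0.06 without that array. HILPDA, a lipid droplet protein, showed -0.18 ± 0.07 without overlap between groups (adjusted p = 0.11). PPP1R3C, which targets a phosphatase to glycogen, was below the filter with 2.46 in control and 2.67 in knockdown cells.

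AK4, a mitochondrial adenylate kinase, read 9.34, 9.25 and 9.49 on control and 9.61, 9.58 and 9.54 on knockdown arrays. The knockdown arrays were all above the controls, by 0.05 at the closest, and the change was 0.22 ± 0.07 (adjusted p = 0.046). The call did not hold in 10 of 15 alternatives. Its 3 other probe sets showed -0.09, 0.06 and 0.22, and with the probe set at -0.09 in place of the brightest the direction turned.

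In the group of mitochondrial and stress genes 2 of 5 tested fell and 2 rose, against 14.3% and 8.13% of all genes tested. BNIP3L (NIX), the outer membrane receptor that hands mitochondria to autophagy, read 8.99, 9.02 and 9.05 on control and 8.33, 8.31 and 8.37 on knockdown arrays. The gap between groups was far wider than the spread within them, and the change was -0.68 ± 0.06 (adjusted p = 6.9e-05), 1.61-fold lower. The second BNIP3L probe set also fell, by 0.46, and the call held in all 15 alternatives. Its relative BNIP3, usually a strong HIF target, was below the filter at 2.15 ± 0.06 in control and 2.34 ± 0.15 in knockdown cells (SD), so no comparison of their changes was made.

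NDRG1, a stress-responsive gene often used as a hypoxia marker, read 9.45, 9.63 and 10.07 on control and 8.79, 8.82 and 8.58 on knockdown arrays. All knockdown arrays were below all controls, and control replicate 3 was well above the other controls. The change was -0.99 ± 0.14 (adjusted p = 0.0010), 1.98-fold lower, and -0.81 without control replicate 3. It is the largest change among the 27 genes on the brightest probe set and rests on 1 probe set.

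FAM162A, a mitochondrial protein gene also known as HGTD-P, read 11.05, 11.05 and 11.09 on control and 11.36, 11.25 and 11.30 on knockdown arrays. The knockdown arrays were all higher, and the change was 0.24 ± 0.04 (adjusted p = 0.0039). Its 3 bright probe sets, of a type whose probes can match other transcripts (names ending in _x_at), showed 0.24, 0.23 and 0.27, while the 2 dim ones showed 0.10 and 0.09. The call was lost when the probe sets were averaged (0.19, adjusted p = 0.092) or that type was avoided (0.10, adjusted p = 0.71). DDIT4 (REDD1), which restrains the growth kinase complex mTORC1, read 11.52, 11.53 and 11.52 on control and 11.68, 11.65 and 11.63 on knockdown arrays. The groups were tight and apart, and the change was small, at 0.13 ± 0.04 (adjusted p = 0.028). It was lost in 6 of 15 alternatives, which were the fit with no intensity trend and the fits without control replicate 1, control replicate 2 or any 1 of the knockdown replicates, with a highest adjusted p of 0.18. WSB1, a ubiquitin ligase subunit gene, showed -0.12 ± 0.06 on its brightest probe set without overlap between groups (adjusted p = 0.16) and between -0.31 and 0.42 on its others.

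Of the genes for pH control and secreted signals, ADM fell and the other two tested did not pass. ADM, which encodes the vasodilator peptide adrenomedullin, read 7.80, 7.89 and 8.01 on control and 7.24, 6.83 and 6.83 on knockdown arrays. Each knockdown array was below each control array, with knockdown replicate 1 nearest to them. The change was -0.93 ± 0.12 (adjusted p = 0.00058), 1.91-fold lower, and it held in all 15 alternatives, between -1.07 and -0.87. CA12, a membrane carbonic anhydrase, showed -0.08 ± 0.06 (adjusted p = 0.40), with changes from -0.18 to 0.31 over its 7 probe sets. MIF, a secreted cytokine, read 11.85, 11.85 and 11.78 on control and 11.77, 11.72 and 11.76 on knockdown arrays. The change of -0.08 ± 0.04 did not pass with all arrays (adjusted p = 0.18) and was -0.10 without control replicate 3 (adjusted p = 0.049).

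Both tested collagen prolyl 4-hydroxylase genes fell, where 14.3% of all genes tested fell. P4HA1 and P4HA2 encode alternative catalytic subunits of the enzyme that hydroxylates proline in collagen, which stabilises the triple helix. P4HA1 read 9.37, 9.58 and 9.75 on control and 9.23, 9.09 and 9.02 on knockdown arrays. P4HA2 read 8.82, 9.0 and 8.91 on control and 8.61, 8.60 and 8.53 on knockdown arrays. In both genes the knockdown arrays were all lower, and the gap to the lowest control was 0.14 for P4HA1 and 0.21 for P4HA2. The changes were -0.45 ± 0.09 for P4HA1 (adjusted p = 0.0079) and -0.33 ± 0.07 for P4HA2 (adjusted p = 0.0070), and both calls held in all 15 alternatives. The second P4HA2 probe set also fell, by 0.53. LOX, which crosslinks collagen outside the cell, was below the filter at 2.70 in both groups. ANKRD37, an ankyrin repeat gene, read 6.94, 6.94 and 7.13 on control and 6.79, 6.63 and 6.46 on knockdown arrays. The groups did not overlap, and the change was -0.38 ± 0.10 (adjusted p = 0.027); the call was lost without knockdown replicate 2 or 3, where the highest adjusted p was 0.12. TMEM45A, a transmembrane protein gene, was below the filter with 2.29 and 2.13. When no filter was used none of the 6 dim genes passed limma's adjusted test, and 1, PPP1R3C, had an unadjusted p under 0.05.

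**Figure D3:**
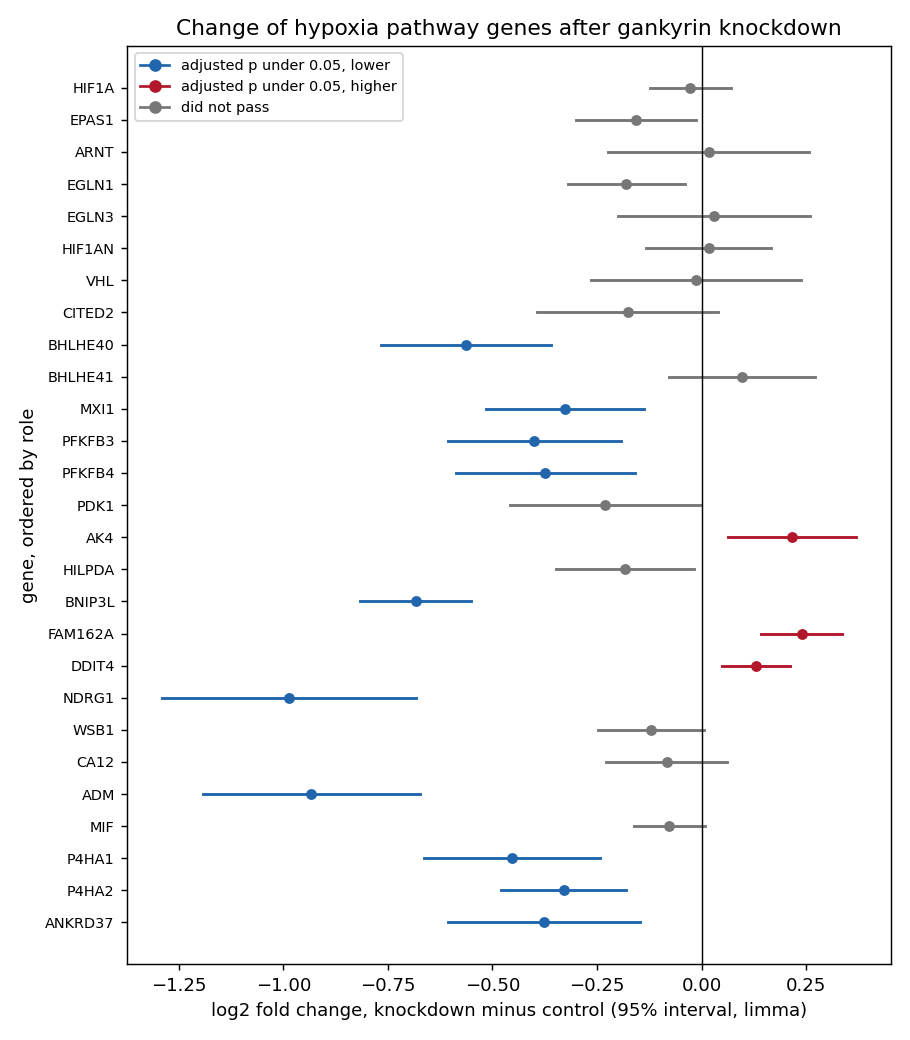
Log2 fold change (x axis, knockdown minus control) of the 27 tested hypoxia genes with limma's 95% interval, ordered by role; blue and red mark adjusted p under 0.05 over all genes. The HIF subunits and the oxygen sensors lie between -0.18 and 0.03, while NDRG1 and ADM lie near -0.99 and -0.93.

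Paralogs and alternative subunits were compared by the difference of their changes, since levels of different probe sets cannot be set against each other. Of 9 pairs listed, 5 had both genes past the filter, and the exact permutation test of 3 arrays against 3 cannot give a two-sided p below 0.1. The change of BHLHE40 minus that of BHLHE41 was -0.66 ± 0.06 (SE), with a 95% interval of -0.84 to -0.48 (exact permutation p = 0.1, 0.25 after Benjamini-Hochberg adjustment over 5 pairs). The difference was as large on the average of all probe sets, at -0.65. EGLN1 against EGLN3 gave -0.21 ± 0.13, with an interval of -0.56 to 0.14 (exact permutation p = 0.1, adjusted 0.25), and 0.01 on averaged probe sets. PFKFB3 against PFKFB4 gave -0.03 ± 0.07 with an interval of -0.21 to 0.16, and -0.33 on averaged probe sets, which lies outside that interval. P4HA1 against P4HA2 gave -0.12 ± 0.10 with an interval of -0.41 to 0.16. HIF1A against EPAS1 gave 0.13 ± 0.06 with an interval of -0.04 to 0.30, and -0.26 on averaged probe sets. With the smallest possible p at 0.1 the test could call no pair, so it does not separate them; the interval of the BHLHE40 and BHLHE41 difference lies wholly below 0, and those of the other 4 pairs include 0.

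The other probe sets gave a mixed account. Of the 27 tested genes 10 had 1 probe set past the filter and 17 had several. Among those 17, 6 were called on the brightest, 3 of these (BNIP3L, P4HA2 and FAM162A) had the same sign on every probe set, and 2 (BNIP3L and P4HA2) were called on every probe set. Of the 36 dimmer probe sets 22 had the sign of the brightest with all arrays and 25 without control replicate 3. In 10 of the 36 that array was at least 0.5 below the mean of the other controls, a limit set after seeing the values; 9 of these 10 were higher after knockdown with all arrays and 5 were without it. In a fit of all 32759 probe sets, added after the data were seen, 7 of the 10 falls and 2 of the 3 rises were called on the brightest probe set, and MXI1, PFKFB4, ANKRD37 and AK4 were not.

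**Figure D4:**
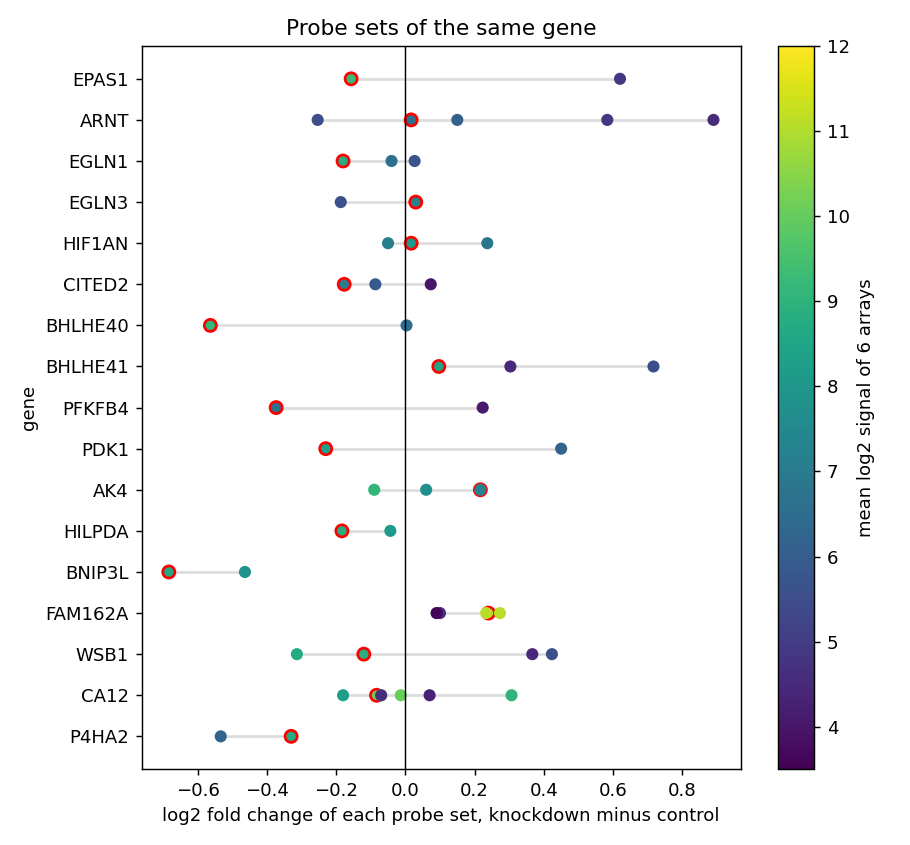
Log2 fold change (x axis) of every probe set past the filter for the 17 hypoxia genes with several; colour gives the mean log2 signal of the 6 arrays and a red ring marks the brightest probe set. BNIP3L and P4HA2 lie below 0 on both probe sets, while EPAS1, PDK1 and WSB1 have probe sets on both sides of 0.

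Further genes of the pathway were read from lists chosen with earlier results of these data known, beside the background of 14.3% lower and 8.13% higher. Of 45 further HIF target genes tested, 16 fell (35.6%) and 3 rose (6.67%), with a median change of -0.10. Without knockdown replicate 1 and with probe sets averaged 10 fell, and without control replicate 3 there were 5 rises. Those with the smallest p were SLC2A1, the glucose transporter GLUT1 (-0.56 ± 0.05), GPRC5A (-0.58 ± 0.06), SPAG4 (-0.67 ± 0.07) and ZNF395 (-1.02 ± 0.14), which fell, and TPD52 (0.41 ± 0.05) and the transferrin receptor TFRC (0.36 ± 0.05), which rose. Among the 14 glycolytic enzyme genes of this list, a subset taken after the values were seen, HK2 (-0.60 ± 0.13), PFKP (-0.46 ± 0.07) and ENO2 (-0.99 ± 0.20) fell, GPI (0.19 ± 0.05) rose and 10 did not pass, among them LDHA (0.01 ± 0.03) and PGK1 (0.05 ± 0.03). Of 23 regulators of HIF beside the genes above, 3 fell and 2 rose, with a median of -0.03. HSP90AA1, a chaperone of HIF1A, fell by 0.17, SAT2 by 0.43 and the deubiquitinase USP20 by 0.36, while CUL2, the scaffold of the VHL ligase, rose by 0.26; the other rise was ELOB at 0.17. Without knockdown replicate 1 0 of the 23 were called by limma (7 at an unadjusted p under 0.05), without knockdown replicate 2 or 3 there was 1 fall and no rise, and without control replicate 1 there was no rise.

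Families around the hypoxia genes were counted without the hypoxia genes themselves. Of 12 further collagen prolyl and lysyl modification genes 6 fell and none rose, with a median of -0.18: the collagen chaperone SERPINH1 (-0.46 ± 0.07), PPIB (-0.17 ± 0.04), LOXL3 (-0.37 ± 0.09), the prolyl 3-hydroxylase P3H1 (-0.36 ± 0.09), PLOD3 (-0.19 ± 0.05) and P4HB (-0.19 ± 0.05), the partner of P4HA1 and P4HA2. Around MXI1, 3 of 9 MYC, MAX and MXD network genes fell, namely MNT (-0.40 ± 0.09), MXD1 (-0.32 ± 0.08) and MLXIP (-0.35 ± 0.10), and none rose; MYC itself showed 0.00 ± 0.06. Around BNIP3L, 1 of 8 mitophagy genes fell, the receptor OPTN at -1.41 ± 0.16, and 1 rose, CALCOCO2 at 0.28 ± 0.07. OPTN read 7.73, 7.82 and 8.45 on control and 6.59, 6.70 and 6.49 on knockdown arrays, with no overlap and control replicate 3 highest.

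Around PDK1, 2 of 9 pyruvate dehydrogenase genes fell and 4 rose. PDHA1 (0.36 ± 0.05), DLD (0.35 ± 0.05), DLAT (0.34 ± 0.08) and PDHB (0.21 ± 0.07) encode subunits of the enzyme complex and rose, while the kinase PDK3 (-0.57 ± 0.09) and the phosphatase PDP1 (-0.53 ± 0.11) fell. Around DDIT4, 4 of 7 further mTORC1 brakes rose, which were DEPTOR (0.66 ± 0.10), AKT1S1 (0.59 ± 0.09), SESN1 (0.51 ± 0.09) and SESN2 (0.20 ± 0.06), and SESN3 fell (-0.85 ± 0.16). Around CA12, 2 of 9 carbonic anhydrase and acid extruder genes rose (22.2%) and 2 fell (22.2%). CA2 (0.44 ± 0.07) and the dim CA4 (0.73 ± 0.12) rose, and the bicarbonate transporters SLC4A7 (-0.44 ± 0.08) and SLC4A4 (-0.47 ± 0.14) fell. CA4, SLC4A4 and SESN3 averaged 3.88, 4.37 and 5.02 over the 6 arrays, under the low end of the scale, 5.48. Beside NDRG1, NDRG2 rose (0.39 ± 0.08) and NDRG3 and NDRG4 were not called. Beside AK4, limma called 0 of 4 adenylate kinases, and 0 had an unadjusted p under 0.05.

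**Figure D5:**
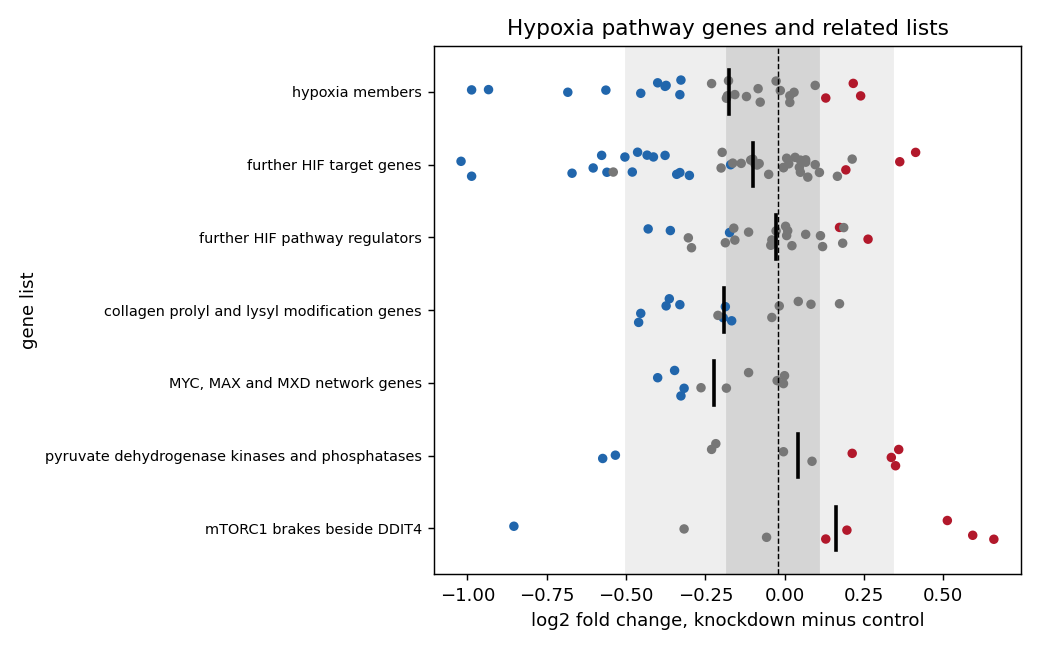
Log2 fold change (x axis) of each tested gene in the hypoxia list and 6 related lists, each including the hypoxia genes that belong to it; blue and red mark adjusted p under 0.05, the black bar is the list's median, the dashed line the median of all genes (-0.02), and the grey bands the middle 50% and 90% of all genes. The hypoxia list, the collagen list and the MYC, MAX and MXD list lie mostly left of the dashed line, and the mTORC1 list mostly right of it.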

How the data were processed

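RNA of SW480 cells was measured on 6 Affymetrix U133 Plus arrays, from 6 µg of total RNA each per the labels. The values used are those the authors deposited, 1 log2 signal per probe set; the log2 scale was read from the values, which span 1.29 to 13.68. The submitters' processing notes name MAS5; what it was used for, and its version, is not given in the sources used here. No columns were unmapped. Of 54675 probe sets, 62 were controls, 41091 named 1 gene, 1801 several and 11721 none; 19735 symbols matched RefSeq and 42 were kept as the annotation gives them. Probe sets in the lowest 40% by 6-array mean (below 3.6) were left out. Each gene was read on its brightest single-gene probe set and fitted with limma 3.58.1 in R 4.3.3 (eBayes with intensity trend, Benjamini-Hochberg over 14199 genes); the script was tested on simulated data. The number of arrays limits the precision. The member genes and all lists were chosen with earlier results of these data known. Named beside them are PSMD10 and NFIL3, the 6 and 4 genes of smallest p among further targets and regulators, and up to 4 called genes per other list; any others named were chosen after their values were seen.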

Additional observations from a re-analysis of the deposited data

How the results depend on the processing

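Over the 27 genes and 15 alternatives, 356 of 405 values kept direction and side of the threshold. Genes lower were 10 under both other scalings, both filters, a robust variance prior, the replicate block and avoided _x_at and _s_at probe sets, 9 with no intensity trend and 8 with probe sets averaged. Genes higher were 2 without a filter or with the block, 3 under the other scalings, the stricter filter and the robust prior, and 1 with no intensity trend, with probe sets averaged and with _x_at and _s_at probe sets avoided. Leaving out 1 array gave 6 to 11 lower (6 without knockdown replicate 2 or 3, 11 without control replicate 3), 1 to 3 higher and 1732 to 4161 genes in all. Further HIF targets lower were 10 to 18, and 10 with probe sets averaged; higher, 2 to 5. With 1 array left out, regulators lower were 0 to 3 and regulators higher 0 to 3. Regulators lower were 1 with arrays centred and 4 with the replicate block. Regulators higher were 1 with no intensity trend, 0 with probe sets averaged and 1 with _x_at and _s_at probe sets avoided. Centring moved the share of calls that were higher from 36.2% to 48.8%, with the hypoxia genes still 10 and 3.

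Averaging turned the direction of EPAS1 (0.23), EGLN3 (-0.078), PDK1 (0.11), WSB1 (0.089), EGLN1 against EGLN3 (0.014) and HIF1A against EPAS1 (-0.26); avoiding _x_at and _s_at turned AK4 (-0.09). Centring turned HIF1A (0.013) and VHL (0.027), and quantile normalization VHL (0.01). Leaving out 1 array turned uncalled values only: HIF1A ranged from -0.06 to 0.005, ARNT from -0.04 to 0.10, EGLN3 from -0.085 to 0.10, HIF1AN from -0.0083 to 0.04, VHL from -0.11 to 0.062 and PFKFB3 against PFKFB4 from -0.085 to 0.015. The causes were not tested. Same-numbered arrays correlated at 0.05, 0.20 and 0.11 in their deviations, and each correlated best with its own number in the other group. What same-numbered arrays share beyond the number is not named in the labels and was not tested. With the replicate block 10 genes were lower and 2 higher, AK4 being lost (limma, adjusted p = 0.058). Dim probe sets limit EGLN2, RORA, PPP1R3C, BNIP3, LOX and TMEM45A.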
